A study of Arabidopsis thaliana with 8 samples.

Results

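Copia elements are retrotransposons with long terminal repeats (LTRs). They are copied through RNA that is reverse transcribed, and the DNA copy is inserted elsewhere in the genome. In Arabidopsis most copies are held silent by DNA methylation and by dimethylation of lysine 9 of histone H3 (H3K9me2), which the plant maintains together. Trimethylation of lysine 4 (H3K4me3) lies over the starts of transcribed genes, and trimethylation of lysine 27 (H3K27me3) is laid down by Polycomb complexes over silent developmental genes. The elements described here are every interval of the deposited count tables annotated as a transposable element of the class LTR/Copia, 1781 of 31189 transposable elements and of 109972 intervals in all. They belong to 109 families, sum to 1917 kb and have a median length of 252 bp (11 to 14968 bp). Most are fragments, since 1348 are at most 1000 bp long, 216 are of over 1000 to 4000 bp, 209 of over 4000 to 8000 bp and 8 longer. The pericentromeres hold 964 of them and the chromosome arms 817.

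The cultured sample was a suspension cell culture of Arabidopsis thaliana ecotype Col-0, kept in liquid medium with the synthetic auxin 2,4-D at 1.1 mg/l, diluted into new medium every 7 d and fixed in 1% paraformaldehyde for 15 min. It was set against leaves of wild-type Col-0 plants grown on agar, for which the labels do not describe fixation. The labels name no mutation or transgene in either sample, and the culture is an established cell line, so all of its libraries come from 1 line. Chromatin was immunoprecipitated with antibodies to histone H3, H3K4me3, H3K27me3 and H3K9me2 and sequenced (ChIP-seq), with 1 library for each antibody in each sample, 8 in all. There are no replicates, so no test between culture and leaf is possible, and all intervals given here are 95% intervals that cover counting error alone. A mark that is lower in every cell and a mark that is missing from a share of the cells cannot be told apart in such bulk samples. By its title the study asked about loss of DNA methylation guided by small RNAs during the plant cell cycle, and about somaclonal variation, which is heritable change among plants raised from cultured cells.

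The level of a mark is the log2 ratio of its reads to the H3 reads of the same sample, both scaled to 1000000 nuclear reads of their library. Densities are given on the same scale as normalised reads per kb. The change is the level in culture minus the level in leaf. An element was counted as risen or fallen if it differed by 2-fold or more with an interval that excluded 0, and as marked if its level was at least 1, which is a mark share 2 times the H3 share. Nuclear reads ranged over 3116646 to 5649143 in the 4 culture libraries and over 1449274 to 2160614 in the 4 leaf libraries, and the median Copia element held 2 to 7 reads in a culture library and 1 to 3 reads in a leaf library. Elements with at least 20 mark reads over both samples and 10 H3 reads in each sample were counted, 408 for H3K9me2, 435 for H3K27me3 and 423 for H3K4me3. The 408 elements had a median length of 4323 bp and came from 106 families, and the 1373 left out had a median length of 170 bp. Reads of near-identical copies cannot be assigned to 1 copy with certainty, and 377 elements overlap another interval, so that a read can be counted in both. As a check of the sample labels, H3K4me3 over 8 genes of dividing cells had a median level of 1.10 in culture and -0.34 in leaf, with 7 of the 8 higher in culture. Over 8 leaf genes the median level was 0.93 in culture and 2.59 in leaf, with 7 of the 8 lower in culture.

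H3K9me2 over Copia elements was lower in the culture. The median level of the 408 elements was -1.03 in culture and 1.73 in leaf, and the median change was -1.88. It depended on the read filter, being -0.40 with no filter and -3.11 with at least 50 mark and 20 H3 reads. In all, 250 elements fell and 36 rose, which is 61.3% and 8.82% of them, where 54.2% of the 3462 transposable elements with enough reads fell and 9.01% rose. The median change over those 3462 was -1.24, so relative to the median element the Copia median was -0.65, with 103 higher and 180 lower by the same rule. In culture 83 of the 408 elements were marked, against 276 in leaf, and 57 were marked in both. These are 20.3% in culture and 67.6% in leaf, where 31.7% of all counted transposable elements were marked in culture and 75.1% in leaf. Copia elements held 2.55% of the nuclear H3K9me2 reads in culture and 5.44% in leaf, and 2.22% of the H3 reads in culture and 1.44% in leaf. Summed over all 1781 elements the change was -1.71 (-1.73 to -1.68). In that sum the element AT3TE45800 alone gave 28.7% of the culture H3K9me2 reads and 14.0% of the culture H3 reads, which the interval does not reflect. Summed over the 1373 elements with too few reads the change was -0.63 (-0.70 to -0.55), which is nearer 0 than over the elements that were counted.

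The difference was largest over long elements. Over the 217 elements longer than 4000 bp, the median H3K9me2 density was 2.93 normalised reads per kb in culture and 34.4 in leaf. The median H3 density of the same elements was 9.16 in culture and 7.39 in leaf. Of the elements of over 4000 to 8000 bp, 157 of 208 fell and 5 rose, with a median change of -3.49. Of those of over 1000 to 4000 bp, 77 of 166 fell and 20 rose, with a median of -0.75. Among the 26 counted elements of at most 1000 bp, 9 fell and 11 rose, with a median of 0.66. Short elements were counted only where reads were dense, so these 26 do not stand for the 1348 elements of that length. The 8 elements of over 8000 bp had a median of -3.75, and 7 of them fell.

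**Figure D1:**
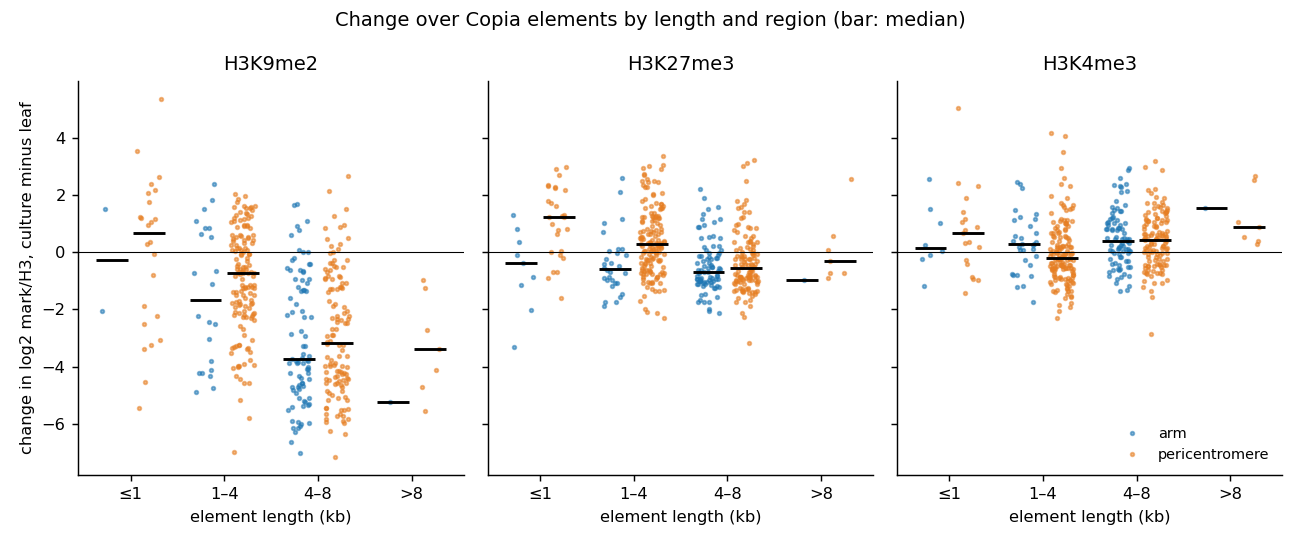
Change in level between culture and leaf (vertical axis, log2, culture minus leaf) for each counted Copia element, by element length in kb (horizontal axis) and by region (blue, chromosome arm; orange, pericentromere), with 1 panel a mark; black bars are medians. H3K9me2 changes lie mostly below 0 among elements over 4000 bp, with medians of -3.73 on arms and -3.17 in pericentromeres for over 4000 to 8000 bp, while H3K27me3 and H3K4me3 changes lie on both sides of 0.

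On the chromosome arms the median H3K9me2 change was -3.29, with 79 of 111 elements fallen and 6 risen. In the pericentromeres it was -1.51, with 171 of 297 fallen and 30 risen. The gap was smaller among elements of like length. Between 4000 and 8000 bp the medians were -3.73 on the arms (65 of 86 fell) and -3.17 in the pericentromeres (92 of 122 fell). With the region borders moved 1 Mb inward the arm median was -2.45, over 200 elements. All 5 chromosomes had negative medians, -1.26 on chromosome 2 being nearest to 0 and -2.84 on chromosome 4 farthest from it. Elements within 500 bp of a gene had a median of -2.28, those at 500 to 2000 bp of -2.49, those at over 2000 to 10000 bp of -1.24 and those farther away of -1.25. Among elements of over 4000 to 8000 bp the same 4 distance classes had medians of -3.29, -3.92, -2.78 and -3.02, with no steady order.

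Other retrotransposons of like length gave the scale of this difference. Gypsy elements, the other large class of LTR retrotransposons, had a median H3K9me2 change of -1.84 over 1549 elements, and 1481 of these lay in pericentromeres. At over 4000 to 8000 bp the Gypsy median was -2.19 over 333 elements, against the Copia median of -3.49. Their leaf levels were alike, with medians of 2.32 for Copia and 2.14 for Gypsy, and their culture levels were not, at -1.62 for Copia and -0.32 for Gypsy. These values match length only. In pericentromeres, where most counted Gypsy elements lay, the Copia median change at that length was -3.17 over 122 elements. The median levels of these 122 were -1.74 in culture and 2.03 in leaf. LINE L1 elements, which are retrotransposons without LTRs, had a median of -3.44 over 82 elements of that length, and 62 of them fell. That is 75.6%, beside 75.5% of the Copia elements of that length. On the arms the LINE L1 elements of that length had -3.75 over 30 elements, close to the Copia value. Long LINE L1 elements thus had a fall of much the same size as long Copia elements. Over all lengths, 53.4% of 88 LINE L1 elements fell on arms and 51.1% of 188 in pericentromeres. For Copia elements these shares were 71.2% and 57.6%. At over 4000 to 8000 bp the arm shares were 75.6% of 86 Copia and 76.7% of 30 LINE L1 elements. The pericentromere shares at that length were 75.4% of 122 Copia and 75% of 52 LINE L1 elements. The gap over all lengths was thus not seen among elements of this length. No test of the differences between classes was made.

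The families differed more than the regions. Of the 30 families with at least 5 counted elements, 23 had a change in summed reads whose interval lay below 0 and 3 one whose interval lay above 0. The summed change was at least 2-fold lower in 20 families and at least 2-fold higher in 2. In culture 7 of the 30 families had a level of at least 1, against 23 in leaf.

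**Figure D2:**
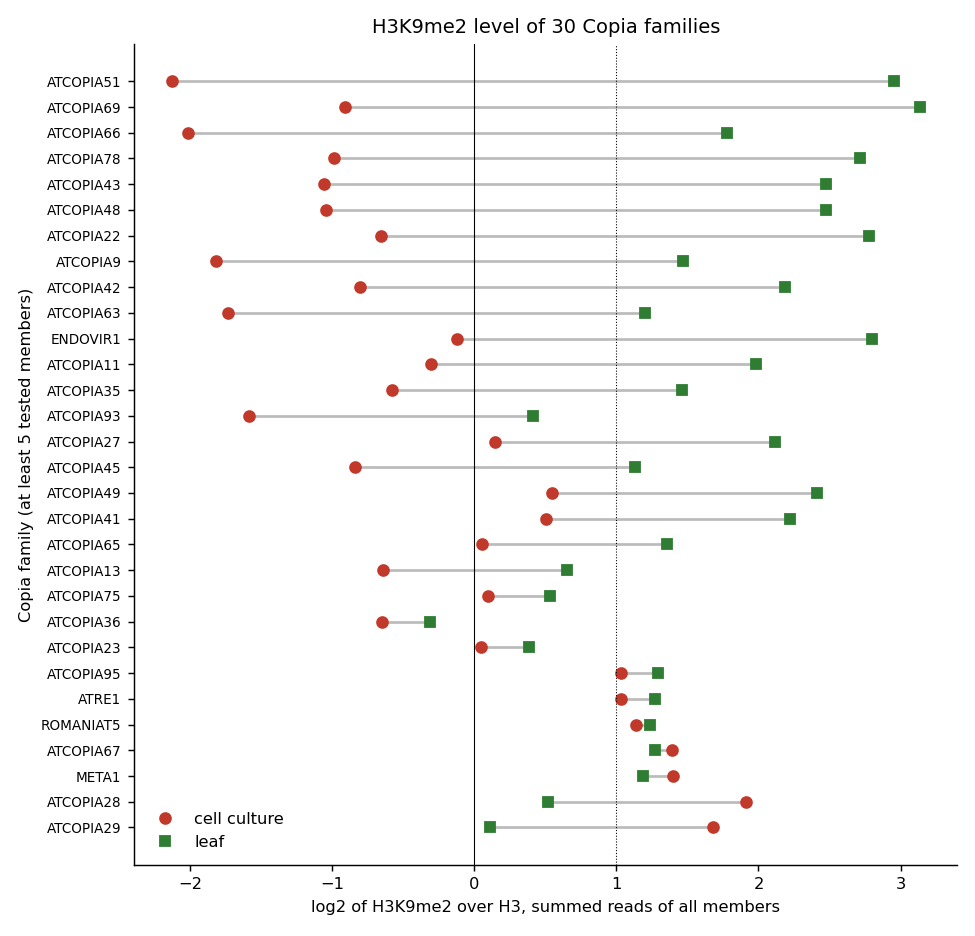
H3K9me2 level (horizontal axis, log2 of H3K9me2 over H3, summed reads of every member) in culture (red circles) and leaf (green squares) for the 30 Copia families with at least 5 counted elements, ordered by the difference; the dotted line is the level of 1 at which an interval counts as marked. ATCOPIA51 shows the widest gap, -2.13 in culture and 2.96 in leaf, and ATCOPIA28 and ATCOPIA29 at the bottom are higher in culture.

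ATCOPIA51 had the lowest change, -5.08 (-5.31 to -4.86). Its 14 members held 441 H3K9me2 reads in culture and 3024 in leaf, and all 7 counted members fell. Its H3 reads numbered 1844 in culture and 312 in leaf, and without division by H3 the change was -3.63. ATCOPIA69 followed with -4.05 (-4.33 to -3.77), from 311 reads in culture and 2584 in leaf, and its 6 counted members fell. Its leaf level of 3.14 was the highest of the 30 families. ATCOPIA66 changed by -3.80 (-4.03 to -3.56) with 5 of 6 members fallen, ATCOPIA78 by -3.70 with 10 of 11 fallen, ATCOPIA43 by -3.53 (-3.68 to -3.38) with 11 of 11 fallen, and ATCOPIA48 by -3.52 (-3.78 to -3.25) with 5 of 6 fallen. ATCOPIA66 and ATCOPIA48 each had 1 member that rose.

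At the other end, ATCOPIA29 and ATCOPIA28 were higher in culture. ATCOPIA29, with 19 members of which none exceeds 4000 bp, held 3085 H3K9me2 reads in culture and 227 in leaf, a change of 1.57 (1.26 to 1.87), and 3 of 6 counted members rose. A single member, AT3TE47220 (chosen after its values were seen), gave 2261 of the culture reads, and its H3 reads were 617 in culture and 38 in leaf. Without it the change was 1.40. ATCOPIA28 held 4913 reads in culture and 571 in leaf, a change of 1.39 (1.17 to 1.61), with 7 of 13 risen and none fallen. Its culture level of 1.91 was the highest of the 30 families. META1, the family with 138 members, had a summed change of 0.21 (0.10 to 0.32). That sign came from 1 short member with very dense H3 in leaf, without which the change was -0.68, and the median of its 28 counted members was -0.69. The changes of ATCOPIA67 at 0.12 (-0.16 to 0.41), ROMANIAT5 at -0.10 (-0.31 to 0.11) and ATRE1 at -0.24 (-0.49 to 0.01) had intervals that include 0.

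Members of 1 family did not always behave alike. The 5 counted ATCOPIA93 members spanned 1.23 log2 units of H3K9me2 change and the 6 ATCOPIA63 members 1.76. The 28 META1 members spanned 7.60 units, the 6 ATCOPIA11 members 7.25 and the 13 ATCOPIA49 members 6.54. The upper end of the META1 span, 5.35, was the short member with very dense H3 in leaf. Long members alone differed too. The 5 ATCOPIA51 members over 4000 bp lay between -5.97 and -5.09 and the 8 of ATCOPIA78 between -4.58 and -3.09, while the 4 of ATCOPIA13 lay between -2.75 and 2.15 and the 6 of ATCOPIA43 between -5.54 and -1.27. The 19 long META1 members lay between -2.25 and 0.08 with a median of -0.89, and 6 of them fell.

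ATCOPIA78 is the family known as ONSEN, which heat stress activates in Arabidopsis. It has 24 members, of which 8 exceed 4000 bp and 7 of those lie on chromosome arms. Those 8 held 55 to 94 H3K9me2 reads in culture with a median of 81.5, against 339 to 674 in leaf with a median of 626. The ranges did not overlap, although the culture library was the deeper one. As normalised reads per kb this was 2.82 to 5.76 in culture and 37.9 to 76.6 in leaf. Over all 217 Copia elements longer than 4000 bp, the lower and upper quartiles were 1.66 and 9.22 in culture and 19.2 and 52.5 in leaf. A gap of this kind is therefore not particular to ATCOPIA78. The summed level of all 24 members was -0.99 in culture and 2.71 in leaf, a change of -3.70 (-3.88 to -3.52). Among the 8, the smallest fall was at AT3TE54550, the one in a pericentromere, with 88 reads in culture and 339 in leaf. The largest was at AT3TE89830, with 55 reads in culture and 527 in leaf. Because these copies are nearly identical, reads may have been shared out among them, and the 8 changes are not independent.

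The other marks differed little over ATCOPIA78. H3K27me3 changed by 0.16 (-0.01 to 0.33), with levels of 0.44 in culture and 0.27 in leaf, and 0 of 11 counted members rose or fell. H3K4me3 changed by -0.23 (-0.46 to -0.01), with levels of -1.13 in culture and -0.90 in leaf, and again 0 of 11 were called. The H3 density of the 8 long copies was 6.06 to 10.9 in culture and 5.61 to 9.95 in leaf, ranges that overlapped. The one counted member whose H3K9me2 was not lower was AT2TE12265, a pericentromeric fragment of 1771 bp with 22 reads in culture and 4 in leaf, a change of 1.18 (-0.48 to 2.84) whose interval includes 0. The 16 members of at most 4000 bp had a summed change of -1.83 (-2.39 to -1.27), against -3.84 (-4.03 to -3.65) for the 8 long ones.

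**Figure D3:**
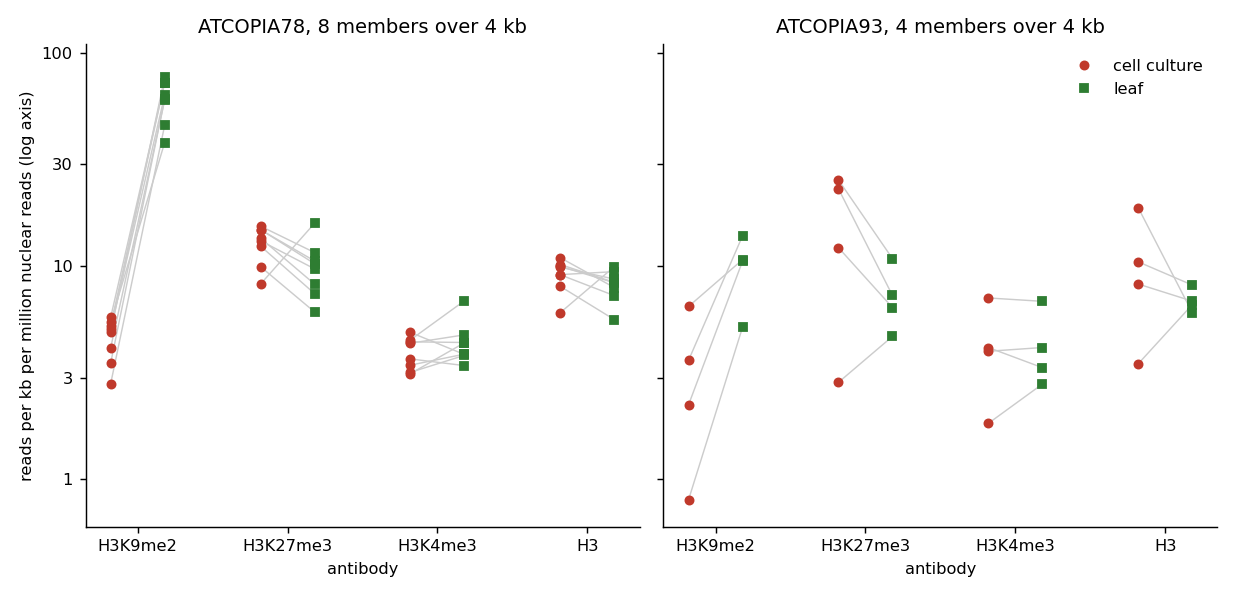
Normalised reads per kb (vertical axis, log scale) for each antibody over the members longer than 4000 bp of ATCOPIA78 (left panel, 8 members) and ATCOPIA93 (right panel, 4 members) in culture (red circles) and leaf (green squares); grey lines join the same member. H3K9me2 is lower in culture in every member shown, by a wider gap in ATCOPIA78 (2.82 to 5.76 in culture, 37.9 to 76.6 in leaf), and culture H3K27me3 reaches 25.3 in ATCOPIA93.

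ATCOPIA93 contains EVADE (AT5TE20395), a copy known to move in Arabidopsis lines that have lost DNA methylation. The family has 10 members, 4 of them over 4000 bp. Its H3K9me2 level was low in both samples, -1.58 in culture and 0.41 in leaf, a change of -1.99 (-2.30 to -1.69), and all 5 counted members fell. Its leaf level was among the 4 lowest of the 30 families. EVADE, on an arm of chromosome 5 at 5629979 to 5635310 and 654 bp from the nearest gene, held 63 H3K9me2 reads in culture and 134 in leaf, a change of -2.27 (-2.87 to -1.68). AT1TE41580, on chromosome 1, held 39 in culture and 102 in leaf, a change of -2.46 (-3.16 to -1.77). AT1TE54585 held 113 in culture and 104 in leaf, a change of -2.33 (-2.92 to -1.75) that was -0.73 without division by H3, whose reads were 313 in culture and 47 in leaf. AT4TE10320 held 14 in culture and 50 in leaf, a change of -1.69 (-2.68 to -0.70).

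H3K27me3 over ATCOPIA93 was higher in culture, by 0.66 (0.40 to 0.92) over the whole family. EVADE held 763 H3K27me3 reads in culture and 125 in leaf, a change of 0.87 (0.37 to 1.36), just short of 2-fold. AT1TE41580 held 694 in culture and 84 in leaf, with a change of 1.40 (0.84 to 1.95), and the adjoining fragment AT1TE41575 held 147 in culture and 17 in leaf, with 1.73 (0.77 to 2.69). Both rose. AT4TE10320 held 86 in culture and 54 in leaf, with 0.20 (-0.53 to 0.92), so 1 of the 4 long members was called as risen. AT1TE54585, the member with raised H3, changed by -0.69 (-1.25 to -0.12), and without it the family change was 1.17 (0.87 to 1.47). H3K4me3 over the family changed by -0.57 (-0.88 to -0.25), and by -0.18 (-0.56 to 0.21) without that member.

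Ranked by the interval end nearer 0, the 6 largest falls of H3K9me2 among single elements were over copies of 4931 to 5315 bp. This ranking favours copies with many reads, and a counted pericentromeric element of over 1000 to 4000 bp changed by -6.99. AT3TE68730 (ATCOPIA79, chromosome 3, 16957466 to 16962731, 632 bp from UTR5) held 16 reads in culture and 738 in leaf, a change of -7.15 (-7.97 to -6.33). AT1TE18410 (ATCOPIA89, chromosome 1, 5691741 to 5696671) held 10 in culture and 946 in leaf, a change of -7.0 (-7.96 to -6.05). AT3TE76225 (ATCOPIA52, chromosome 3, 18791153 to 18796089) held 15 in culture and 837 in leaf, a change of -6.64 (-7.47 to -5.80). The other 3 ranked next were AT4TE50435 (ATCOPIA47) with 27 reads in culture and 1211 in leaf, AT3TE40420 (ATCOPIA82) with 30 in culture and 1004 in leaf, and AT5TE23185 (ATCOPIA89) with 18 in culture and 528 in leaf. In leaf all 6 were strongly marked, at levels of 3.17 to 3.65, and in culture they lay at -3.64 to -2.55. Of the 6, 5 lie on chromosome arms, as do 111 of all 408 counted elements.

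The largest rises by the same ranking were smaller and over mixed kinds of copy. AT4TE10895, a META1 piece of 121 bp, held 652 H3K9me2 reads in culture and 59 in leaf while its H3 reads were 255 in culture and 804 in leaf, a change of 5.35 (4.92 to 5.79). It is the Copia element with the dense leaf H3 named above. AT3TE60720, an ATCOPIA28 copy of 5379 bp, held 416 reads in culture and 23 in leaf, a change of 2.65 (1.84 to 3.45), and its H3K27me3 also rose, by 1.59 (0.85 to 2.33). The others were AT4TE08870 (ATCOPIA27, 26 reads in culture and 2 in leaf), AT3TE46790 (ATCOPIA28, 139 in culture and 14 in leaf), AT2TE14495 (ATCOPIA23, 43 in culture and 18 in leaf) and AT3TE91870 (ATCOPIA13, 38 in culture and 4 in leaf). AT3TE91870 overlaps a gene interval. The change of 2.18 at AT2TE14495 was 0.36 without division by H3, whose reads were 13 in culture and 22 in leaf. This element starts at 3344501 of chromosome 2, in or near the mitochondrial insertion described with the H3 values. The borders of that insertion were not examined here. The 36 risen elements had a median length of 1660 bp and 16.7% lay on arms, where the 250 fallen ones had a median length of 4790 bp and 31.6% lay on arms.

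The highest H3K9me2 levels show which copies stood out within each sample. In culture they were AT2TE20645 (ENDOVIR1, level 2.59 in culture and 1.5 in leaf), AT1TE45970 (ATCOPIA28, 2.57 in culture and 0.61 in leaf), AT1TE51580 (ATCOPIA95, 2.50 in culture and 1.53 in leaf) and AT3TE69190 (ATCOPIA28, 2.46 in culture and 1.81 in leaf). In leaf they were AT1TE34580 (ATCOPIA73, -0.15 in culture and 4.16 in leaf), AT2TE35840 (ATCOPIA69, -0.71 in culture and 3.92 in leaf), AT4TE44990 (META1, 1.59 in culture and 3.84 in leaf) and AT5TE82430 (META1, 1.67 in culture and 3.77 in leaf). The 2 META1 copies fell by over 2-fold and were still marked in culture. AT1TE34580 lies 5876 bp from ARF6, which encodes an auxin response factor. The 4 highest in leaf lie on arms, and 3 of the 4 highest in culture lie in pericentromeres, as do 297 of all 408 counted elements.

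H3K4me3 was low over Copia elements in both samples and rose over a subset of long copies. The median level was -0.66 in culture and -0.72 in leaf, and the median change was 0.20. Of 423 elements 92 rose and 31 fell, 21.7% and 7.33%, where 15.1% of the 3383 transposable elements counted rose and 10.6% fell. In culture 47 of the 423 were marked, against 9 in leaf, with 7 marked in both. These are 11.1% in culture and 2.13% in leaf, where 7.15% of all counted transposable elements were marked in culture and 1.21% in leaf. Of the 92 risen elements 64 exceed 4000 bp and 34 lie on arms, and they come from 55 families. Of all 423 counted elements 217 exceed 4000 bp and 127 lie on arms. Between 4000 and 8000 bp the median was 0.41, with 60 risen and 10 fallen of 209, and the 217 elements over 4000 bp had a median density of 8.08 normalised reads per kb in culture and 4.5 in leaf. LINE L1 elements of over 4000 to 8000 bp had a median of 0.28, and 28.6% of 84 rose, beside 28.7% of the Copia elements of that length. The Gypsy median at that length was -0.17, with 25 risen and 39 fallen of 333. Copia elements within 500 bp of a gene had a median of 0.26, with 26 risen and 10 fallen of 121. At 500 to 2000 bp it was 0.47, with 41 risen and 5 fallen of 120. At over 2000 to 10000 bp it was 0.15, with 23 risen and 7 fallen of 119. Farther away it was -0.20, with 2 risen and 9 fallen of 63, none of them on an arm. On arms alone the medians were 0.11 within 500 bp, 0.54 at 500 to 2000 bp and 1.11 at over 2000 to 10000 bp. Of LINE L1 elements, 15 rose and 12 fell of 90 at 500 to 2000 bp. At over 10000 bp 8 rose and 4 fell of 32.

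ATCOPIA11 had the largest family change in H3K4me3, 2.74 (2.41 to 3.06), from 1389 reads in culture and 134 in leaf, with 4 of 6 counted members risen. Without its members with a 4-fold difference in H3 the change was 2.30. ATCOPIA22 changed by 1.56 (1.32 to 1.80), with 3362 reads in culture and 308 in leaf and 5 of 6 members risen. ATCOPIA43 changed by 1.53 (1.35 to 1.70), with 4515 reads in culture and 606 in leaf and 4 of 11 members risen. The lowest were ATCOPIA27 at -0.67 (-0.85 to -0.48), ATCOPIA63 at -0.59 (-0.99 to -0.19) and ATCOPIA93. The ATCOPIA27 value depends on H3, since its H3K4me3 reads alone were 2137 in culture and 619 in leaf, a change of 1.04.

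The largest H3K4me3 rises brought single elements well above H3. AT3TE68090 (ATCOPIA81, chromosome 3, 16809186 to 16814151) held 894 H3K4me3 reads in culture and 58 in leaf, a change of 2.97 (2.39 to 3.54) to a culture level of 2.40. Over the same element H3K9me2 was 22 reads in culture and 631 in leaf. AT5TE47205 (ATCOPIA95, chromosome 5, 13328544 to 13331829) held 549 in culture and 18 in leaf, a change of 4.15 (3.27 to 5.04), beside 20 H3K9me2 reads in culture and 113 in leaf. AT3TE48535 (ATCOPIA97) held 650 in culture and 40 in leaf, a change of 3.18 (2.53 to 3.82), beside 29 H3K9me2 reads in culture and 193 in leaf. AT2TE15045 (ATCOPIA11) held 82 in culture and 15 in leaf, but its change of 5.02 (3.94 to 6.10) came largely from H3 reads of 16 in culture and 82 in leaf. It lies at 3459141 to 3460112 of chromosome 2, in the stretch with the mitochondrial insertion that is described with the H3 values. The changes of both marks use the same H3 libraries, so their values are given side by side and no relation was tested.

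The 4 largest H3K4me3 falls, ranked by the interval end nearer 0, lay over elements with more H3 in culture. By size of change the order differs, since AT2TE20645 (ENDOVIR1) changed by -2.06, with H3 reads of 83 in culture and 16 in leaf. AT3TE45800 (ATCOPIA5) changed by -2.87 (-3.21 to -2.53) although its H3K4me3 reads were 4445 in culture and 371 in leaf. AT3TE60925 (ATCOPIA13) held 58 in culture and 53 in leaf, a change of -1.77 (-2.55 to -1.0), AT1TE54585 (ATCOPIA93) 132 in culture and 76 in leaf, with -1.56 (-2.16 to -0.96), and AT3TE47235 (ATCOPIA27) 798 in culture and 157 in leaf, with -1.36 (-1.76 to -0.95). Without division by H3 the changes of AT3TE45800, AT1TE54585 and AT3TE47235 were 2.84, 0.04 and 1.59, with the sign turned.

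H3K27me3 over Copia elements shifted in both directions. The median level was -0.62 in culture and -0.41 in leaf, and the median change was -0.23. Of 435 elements 80 rose and 83 fell, 18.4% and 19.1%, where 19.5% of the 3575 transposable elements counted rose and 13% fell. Without division by H3 the median was 0.09. The summed reads of all 1781 elements, which were divided by H3, changed by 0.09 (0.06 to 0.12). The median over H3 thus differed in sign from both of these summaries. In culture 56 of the 435 were marked, against 26 in leaf, with 13 in both. The culture share of 12.9% was near the 13.8% of all counted transposable elements, and the leaf share was 5.98% beside 3.13%. On arms the median was -0.64, with 13 risen and 36 fallen of 127, and in pericentromeres -0.02, with 67 risen and 47 fallen of 308. Pericentromeric elements of over 1000 to 4000 bp had a median of 0.28 with 41 risen and 14 fallen of 152, and arm elements of over 4000 to 8000 bp had -0.69 with 8 risen and 26 fallen of 87. Of LINE L1 elements of all lengths, 3 rose and 34 fell of 105 on arms, and 21 rose and 40 fell of 204 in pericentromeres.

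META1 had the largest family rise in H3K27me3, 1.78 (1.64 to 1.92), and 17 of its 28 counted members rose while none fell. Without AT4TE10895, its member with dense leaf H3, the change was 1.33. ATCOPIA27 rose by 1.64 (1.46 to 1.82), from 14877 reads in culture and 558 in leaf, and 4 of 7 members rose. Of those culture reads 7003 lay over AT3TE47235, and the change was 1.47 without that member. ATCOPIA67 changed by 1.38 (1.06 to 1.71), with 2 of 5 members risen. The lowest families were ATCOPIA12 at -1.26 (-1.48 to -1.05), ATCOPIA51 at -1.08 (-1.32 to -0.84) and ATCOPIA22 at -1.01 (-1.23 to -0.78). ATCOPIA12 carried the most H3K27me3 in leaf, a level of 2.00 that was 0.73 in culture, and little H3K9me2, at -1.90 in culture and -2.04 in leaf. Without division by H3 these 3 families changed by 0.18, 0.38 and 0.14, so their falls rest on their higher H3 in culture.

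**Figure D4:**
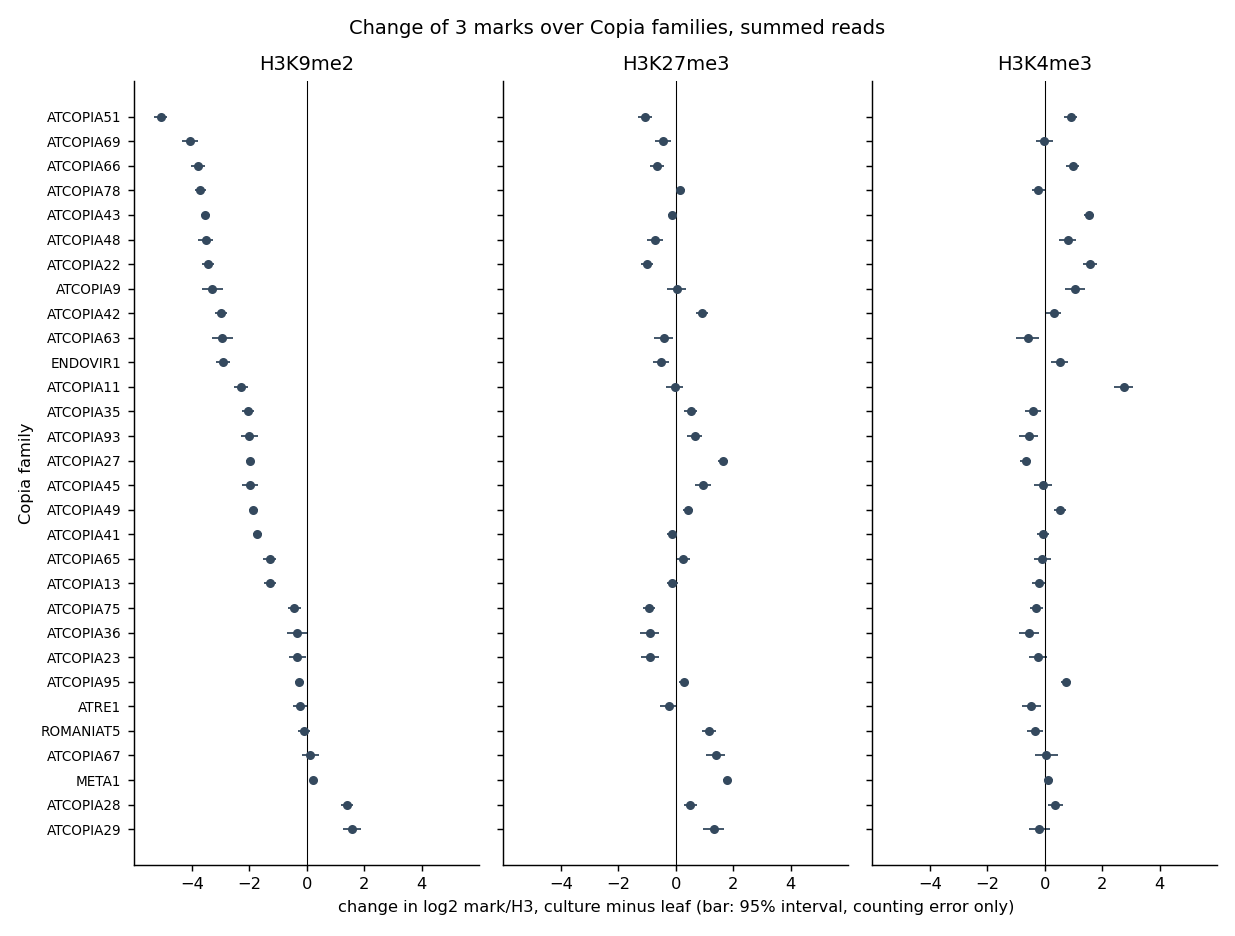
Change between culture and leaf (horizontal axis, log2 of mark over H3, culture minus leaf, summed reads of all members) for H3K9me2, H3K27me3 and H3K4me3 in 30 Copia families, ordered by the H3K9me2 change; bars are 95% intervals of counting error. ATCOPIA11 stands apart in H3K4me3 at 2.74 and META1 and ATCOPIA27 in H3K27me3 at 1.78 and 1.64; the 3 panels share the H3 libraries.

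Ranked by the interval end nearer 0, both counted ATCOPIA20 copies were among the 4 largest H3K27me3 rises. By size alone, the highest change of a counted element was 3.37. AT2TE13385 (chromosome 2, 3083905 to 3089468, pericentromere) held 8749 H3K27me3 reads in culture and 131 in leaf, a change of 3.02 (2.62 to 3.41) to a culture level of 2.90. Its H3 reads were 646 in culture and 95 in leaf, and its H3K9me2 level was 0.75 in culture and 1.28 in leaf. AT4TE09805, a second ATCOPIA20 copy on chromosome 4, held 2400 in culture and 51 in leaf, a change of 2.94 (2.27 to 3.62). AT3TE50550 (ATCOPIA67) held 1354 in culture and 49 in leaf, with 3.04 (2.32 to 3.75), and AT5TE51845 (META1) held 255 in culture and 14 in leaf, with 3.23 (2.17 to 4.28). These 4 lie in pericentromeres, as do 308 of all 435 counted elements.

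Of the 4 largest H3K27me3 falls by the interval end nearer 0, 3 were over elements marked in leaf. AT1TE57200 (ATCOPIA75, chromosome 1, 17247721 to 17252579) held 185 reads in culture and 548 in leaf, a change of -3.17 (-3.66 to -2.68), at a leaf level of 2.59. It carried almost no H3K9me2, 35 reads in culture and 5 in leaf. AT2TE72255 (ATCOPIA21), a fragment of 798 bp 256 bp from a gene, held 14 in culture and 106 in leaf, with -3.30 (-4.57 to -2.03), and its H3K4me3 rose by 1.5 (0.36 to 2.65). AT3TE60635 (ATCOPIA34) held 92 in culture and 69 in leaf, with -2.26 (-2.91 to -1.61), beside H3 reads of 219 in culture and 41 in leaf. AT2TE15975 (ATCOPIA96) held 186 in culture and 211 in leaf, with -2.12 (-2.66 to -1.57) at a leaf level of 1.57.

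H3 itself differed over a few elements by far more than over the rest. The median H3 change of 552 elements was 0.34, with 80 risen and 32 fallen, where 17.4% of the 5237 transposable elements counted rose and 3.48% fell. The sign of that median was not stable, at -0.10 with no filter on low counts and -0.059 relative to the median element, where 37 were higher and 59 lower. AT3TE45800, an ATCOPIA5 copy of 4693 bp at 11016112 to 11020804 of chromosome 3 and 2753 bp from EXPA5, held 9637 H3 reads in culture and 85 in leaf, 52.7-fold more as a share of nuclear reads. It alone gave 28.7% of the Copia H3K9me2 reads and 14.0% of the Copia H3 reads in culture, against 0.464% and 0.406% in leaf. Without it Copia elements held 1.82% of the culture H3K9me2 reads. The 40 other intervals within 10 kb of it held 4554 H3 reads in culture and 185 in leaf, 11.4-fold more, those at 10 to 50 kb 8.62-fold more and those at 50 to 200 kb 1.09-fold more. The surplus covered a stretch of chromosome around the element. H3 reads do not separate more DNA from denser nucleosomes.

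**Figure D5:**
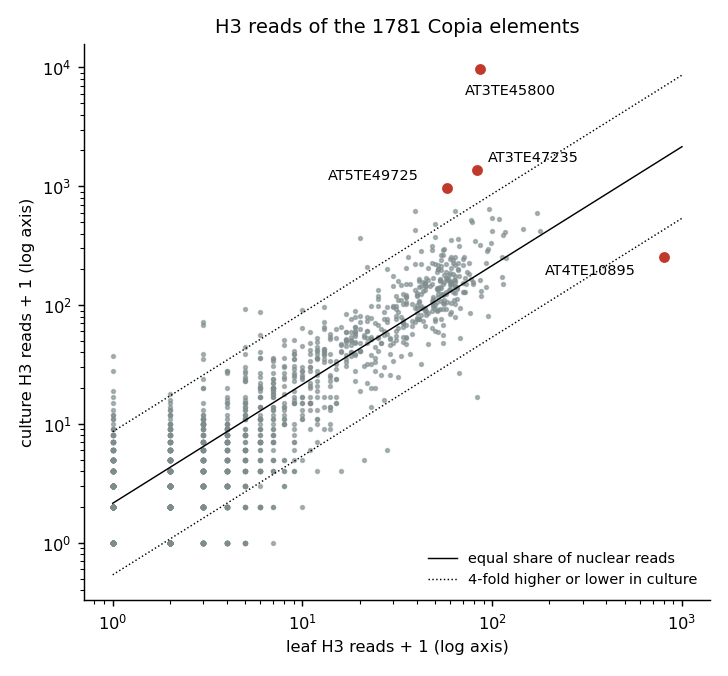
H3 reads plus 1 of each of the 1781 Copia elements in culture (vertical axis, log scale) and leaf (horizontal axis, log scale); the solid line marks an equal share of nuclear reads and dotted lines a 4-fold difference, and 4 elements are named. AT3TE45800 lies far above the lines with 9637 reads in culture and 85 in leaf, and AT4TE10895 far below with 255 in culture and 804 in leaf.

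In all, 20 Copia elements had at least 4-fold more H3 in culture, 3.62% of the 552, beside 4.47% of all transposable elements, and 7 of the 20 lie within 400 kb of AT3TE45800, itself included. Among these, AT3TE47220, AT3TE47235 and AT3TE47275 lie apart, at 11324469 to 11354141 of chromosome 3. That is beyond the intervals at 50 to 200 kb, which had only 1.09-fold more H3 in culture. At least 4-fold less H3 was found at 5 elements, 0.906% beside 0.764%, and 4 of these lie at 3.38 to 3.48 Mb of chromosome 2, where the Col-0 genome holds a large insertion of mitochondrial DNA. Mitochondrial reads made up 0.348% of the culture H3 library and 1.54% of the leaf H3 library, and their part in the H3 values there was not tested. Without the elements with a 4-fold difference in H3, the median changes were -1.93 for H3K9me2, -0.23 for H3K27me3 and 0.20 for H3K4me3.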

How the data were processed

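The files deposited by the authors give raw read counts, not normalised, over one shared set of 109972 intervals per library. Bowtie2, bedtools and the TAIR10 genome are named in the submitters' processing notes, without versions. Aligner settings, and how duplicate or multiply mapping reads were handled, were not given in the sources used here. Element class, family and coordinates come from the files, and gene symbols from RefSeq. A pseudocount of 1 was added to counts of single elements and none to sums. Pericentromeres were set as 12 to 18 Mb of chromosome 1, 1 to 7 Mb of chromosome 2, 11 to 17 Mb of chromosome 3, 1 to 6 Mb of chromosome 4 and 9 to 15 Mb of chromosome 5. An interval is H3-dense if its leaf H3 density is over 20 times that of the median protein-coding gene (2070 intervals). Families named are ATCOPIA78, ATCOPIA93, and the 6 lowest and 6 highest H3K9me2 changes and 3 each for the other marks, among families with at least 5 counted elements. Elements named are the members of those 2 families, the 6 largest rises and falls (4 for the other marks) by the interval end nearer 0, and the 4 highest H3K9me2 levels in each sample. Members, lists and rules were chosen with earlier results of these data known. The code was tested on simulated counts. Element sequences were not analysed here. Python 3.11.15, pandas 2.3.3 and numpy 2.4.6 were used.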

Additional observations from a re-analysis of the deposited data

How the results depend on the processing

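No paired analysis was possible because there is 1 library for each antibody and sample. Depth limits the counts to long elements, and no spike-in ties the libraries to a common scale. The H3K9me2 median was -0.40 with no filter on low counts, -3.11 with a stricter one (50 mark and 20 H3 reads), -0.65 centred on the median element and -3.49 over elements of at least 4000 bp. The risen elements then numbered 65, 9, 103 and 5, and 19 by a 3-fold rule, while 164 fell among those of at least 4000 bp. The H3K27me3 median was 0.087 without H3, -0.45 with the stricter filter, -0.076 centred and -0.63 over long elements. Risen elements numbered 135 with no filter, 44 with the stricter one, 49 by the 3-fold rule and 22 among long elements, and fallen ones 130 with no filter and 26 by the 3-fold rule. The H3K4me3 median was 0.44 without H3, 0.36 with no filter and 0.46 over long elements. By the 3-fold rule 46 rose and 8 fell, and 59 fell with no filter, 14 with the stricter one and 10 among long elements. The H3 median was 0.15 with a pseudocount of 5, -0.10 with no filter and -0.059 centred, and 52 elements rose with the pseudocount of 5, 37 rose and 59 fell centred, and 72 fell with no filter. The sign also turned without H3 for H3K27me3 in ATCOPIA12 (0.18), ATCOPIA22 (0.14) and ATCOPIA51 (0.38), for H3K4me3 in ATCOPIA27 (1.04), AT1TE54585 (0.044), AT3TE45800 (2.84) and AT3TE47235 (1.59), and for H3K9me2 in META1 (-0.70, with a median of -0.69 and -0.68 without its H3-dense member). Centred, it turned for H3K9me2 over pericentromeric elements of over 1000 to 4000 bp (0.50) and over AT1TE41575 (0.0062). Leaving out H3-dense intervals from the totals, overlapping elements or, chosen after seeing the data, elements with a 4-fold difference in H3 kept each class median's direction and each count within 1.5 times. The cause of these shifts was not tested.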
